A study of Homo sapiens with 18 samples.

Results

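The 45 genes described here encode proteins that make ribosomes. They comprise 6 genes of RNA polymerase I and its initiation factors, 5 genes of abundant nucleolar proteins, 4 genes of proteins in small nucleolar ribonucleoproteins (snoRNPs), 18 genes of small subunit assembly and 12 genes of large subunit assembly. Each member was taken by its symbol and read from the probe set whose platform annotation named only that gene, or from the brightest where several did. This gave 43 of the 45 members, among 18417 genes of the array read in the same way, and all 43 were among the 14209 genes tested. NOP56 lies on a probe set that also names SNORD56, and GNL3 matched no symbol of the annotation; both were not analysed here.

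The cells were H1, an established line of human embryonic stem cells (hESC), and RNA was measured on 18 Affymetrix Human Gene ST arrays. The 6 groups, of 3 arrays each, were embryoid bodies (aggregates grown in APEL medium for 6 days) with a lentiviral shRNA against KBTBD8, with a lentiviral control shRNA or untransduced, and pluripotent cells on Matrigel in mTeSR1 medium with the same 3 treatments. KBTBD8 encodes a protein that recruits substrates to the ubiquitin ligase built on CUL3. The design text calls the 3 samples of a group independent without naming cultures, so p-values here measure the spread between these arrays, which may be technical.

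Ribosomes are assembled in the nucleolus. RNA polymerase I transcribes a long precursor of the ribosomal RNAs there, snoRNPs guide its chemical modification, and assembly factors fold and cut it while ribosomal proteins join, first in a common particle and then along separate small and large subunit routes. Stem cells and other fast-growing cells are known for high activity of this pathway, and the transcription factor MYC is known to raise the expression of many of its genes.

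The 2 arrays labelled KBTBD8 shRNA replicate 2 lay with the other state and were read apart. Across all genes tested, the array labelled pluripotent correlated at 0.990 with the other KBTBD8 shRNA embryoid bodies and at 0.908 with its own group. The array labelled embryoid body correlated at 0.993 with the other KBTBD8 shRNA pluripotent cells and at 0.914 with its own group. Each of the remaining 16 arrays correlated best with the group on its label. Among the 43 members, 37 lay nearer the other state on the array labelled embryoid body and 36 on the array labelled pluripotent. All values below come from a fit of the 16 remaining arrays, with 2 arrays in each KBTBD8 shRNA group, unless a value is said to come from all 18. KBTBD8 itself stood at 5.13 and 4.96 in KBTBD8 shRNA pluripotent cells, against 6.39, 7.09 and 7.03 with the control shRNA (log2 intensity). In embryoid bodies KBTBD8 stood at 4.86 and 4.66 with the KBTBD8 shRNA, against 4.43, 4.79 and 5.04 with the control shRNA. Its difference between these shRNAs there was 0.01 ± 0.26 (SE). These embryoid body values lie below the median of every array, so a knockdown may not show there. The median intensity per array was 5.97 to 6.12 on the 12 transduced arrays, the 2 read apart included, and 5.85 to 5.95 on the 6 untransduced arrays.

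Members of the module were lower in embryoid bodies than in pluripotent cells under every treatment. With the KBTBD8 shRNA 22 of 43 fell and none rose, where 21.1% of all genes tested were called lower and 17.3% higher. With the control shRNA 33 fell and 2 rose, where 25.2% of all genes were called lower and 23.1% higher. In untransduced cells 28 fell and 1 rose, where 26.3% were called lower and 25.8% higher. The median log2 difference of the members was −0.31 with the KBTBD8 shRNA, −0.48 with the control shRNA and −0.32 in untransduced cells, against 0.00, −0.02 and −0.04 over all genes tested. A call is an adjusted p under 0.05 in limma, after Benjamini and Hochberg over all genes tested. In these bulk samples, fewer cells of a type and less RNA per cell cannot be told apart. With all 18 arrays as labelled, 0 members were called with the KBTBD8 shRNA by limma (0 at an unadjusted p under 0.05, and 0.00% of all genes tested called). On those arrays 30 members were called with the control shRNA, where 33.9% of all genes were, and 14 in untransduced cells, where 38.6% were. No other tool was run.

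**Figure D1:**
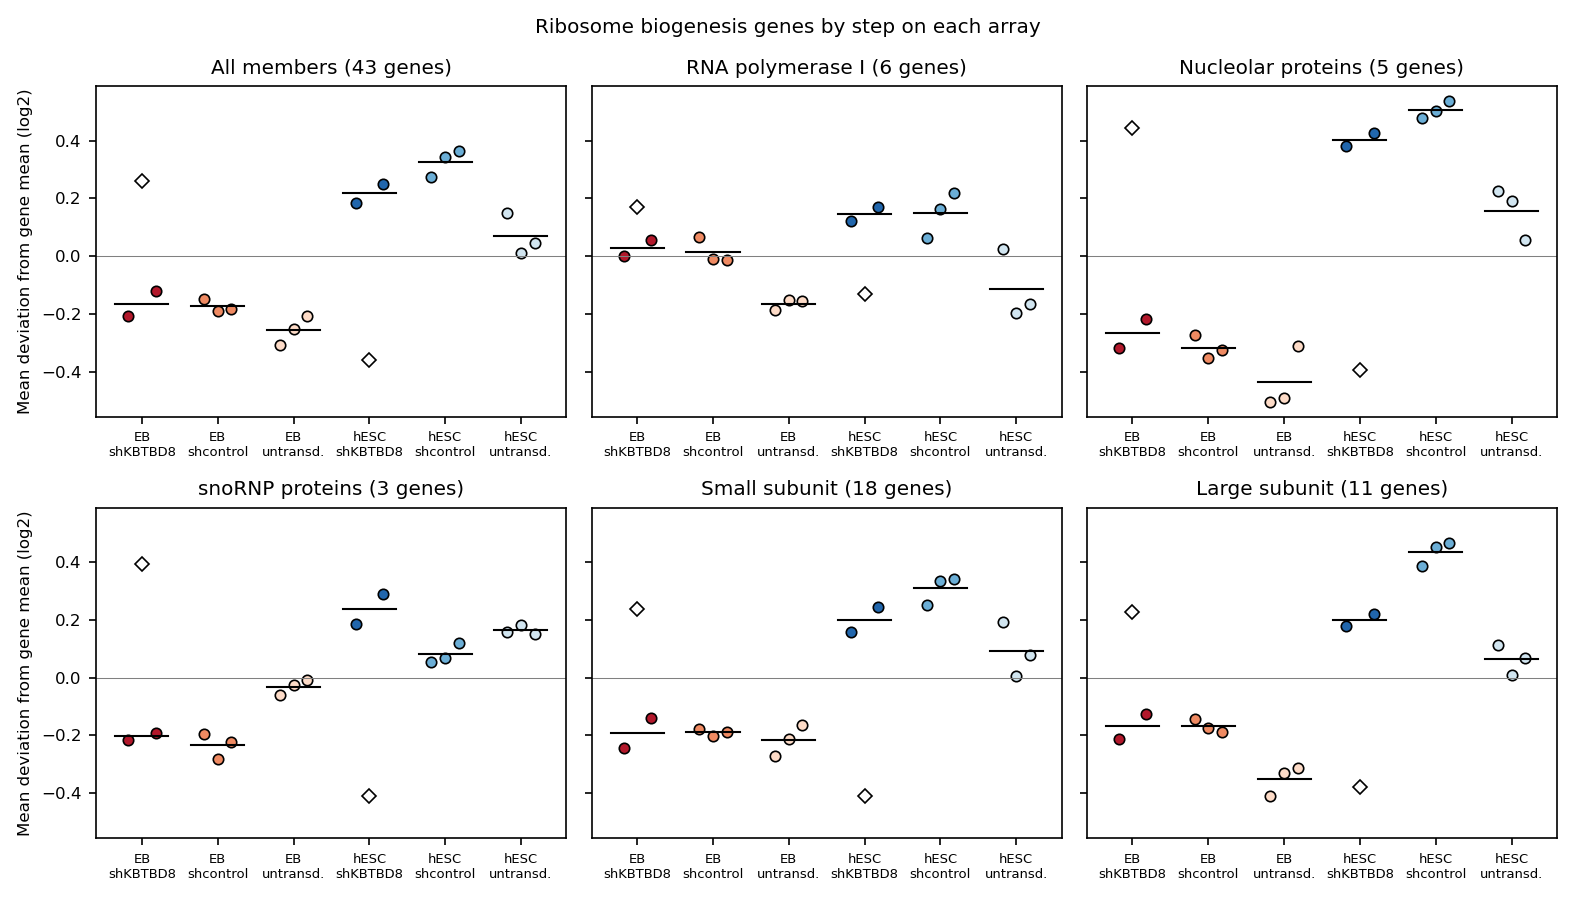
Mean deviation of the members from their gene means on each array (y axis, log2), for all 43 measured members and for each step; bars are group means, and the open diamonds are the 2 arrays read apart. The mean over all members lay between −0.31 and −0.12 on the embryoid body arrays in the fit and between 0.01 and 0.36 on the pluripotent arrays, whereas the diamonds lie at 0.26 and −0.36, on the side of the other state.

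The same 19 members were called lower under all 3 treatments: DDX21, DKC1, HEATR1, IMP4, LTV1, LYAR, MYBBP1A, NIP7, NOC3L, NOP16, NOP2, POLR1B, RRP12, RRP1B, RRP9, UTP15, UTP20, WDR12 and WDR43. Of all genes tested 12.2% were called lower under all 3. After centring each array on its median, LTV1, NOC3L, POLR1B and UTP15 lost their untransduced calls (limma, adjusted p 0.130, 0.080, 0.087 and 0.059). The untransduced groups of UTP15 overlapped. Outside the 19, centring also removed the untransduced calls of NCL, POLR1A, WDR75 and GRWD1 (adjusted p 0.158, 0.053, 0.102 and 0.115). A total of 34 members were called lower under at least 1 treatment, where 38.2% of all genes were. The other 9 were BYSL, FBL, NOB1, NPM1, POLR1E, RIOK2, RRN3, TAF1D and UTP18. The 9 include FBL, the methyltransferase of box C/D snoRNPs, and NPM1, an abundant nucleolar chaperone. NPM1 has 4 probe sets of its own and near-identical processed copies in the genome, so its value is uncertain.

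Among the nucleolar proteins, DDX21, an RNA helicase that binds ribosomal RNA genes and snoRNAs, showed the most even decrease. It stood at 9.06 and 9.20 in KBTBD8 shRNA embryoid bodies, against 10.43 and 10.41 in KBTBD8 shRNA pluripotent cells. It stood at 9.20, 9.12 and 9.14 with the control shRNA, against 10.47, 10.41 and 10.44, and at 8.51, 8.55 and 8.67 in untransduced embryoid bodies, against 9.95, 9.90 and 9.75 in untransduced pluripotent cells. The states did not overlap under any treatment, and the log2 difference was −1.29 ± 0.09 with the KBTBD8 shRNA, −1.29 ± 0.08 with the control shRNA and −1.29 ± 0.08 untransduced (SE, adjusted p 2.9e-08, 1.6e-09 and 9.8e-10). On all 18 arrays the difference with the KBTBD8 shRNA was −0.39, with the array labelled pluripotent at 9.09 and the array labelled embryoid body at 10.51.

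LYAR, a nucleolar zinc finger protein named for its growth-regulating role in mouse cells, stood at 6.92 and 6.99 in KBTBD8 shRNA embryoid bodies, against 8.14 and 8.31 in KBTBD8 shRNA pluripotent cells. With the control shRNA its values were 7.06, 6.99 and 6.80, against 8.15, 8.38 and 8.40. In untransduced cells they were 7.31, 7.33 and 7.62, against 7.95, 7.81 and 7.88. Every embryoid body array in the fit was below every pluripotent array, but the distance differed by treatment. The log2 difference was −1.27 ± 0.13 with the KBTBD8 shRNA, −1.36 ± 0.10 with the control shRNA and −0.46 ± 0.10 untransduced (SE, adjusted p 8.6e-07, 2.4e-08 and 0.0014).

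MYBBP1A, a nucleolar protein known to restrain ribosomal RNA synthesis and to bind MYB, fell by 0.53 ± 0.14 with the KBTBD8 shRNA, by 1.13 ± 0.12 with the control shRNA and by 0.92 ± 0.12 in untransduced cells (log2, SE, adjusted p 0.0074, 8.3e-07 and 6.3e-06). NCL, which encodes nucleolin, fell by 0.27 ± 0.07 with the control shRNA and by 0.19 ± 0.07 in untransduced cells. With the KBTBD8 shRNA the NCL difference was −0.16 ± 0.09 (adjusted p 0.17).

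The 5′ regions of 4 of the members with the largest mean decrease over the 3 treatments are printed here, to show the sequence upstream of genes that moved together. They are taken from RefSeq (GRCh38.p14), which gave such a window for 40 of the 45 members, from 250 bases before the annotated start through the 50 bases from it, 5′ to 3′ on the strand of the gene. Capitals mark matches to the motifs described next. The windows are those of DDX21 (chr10:68955920-68956219, plus strand), LYAR (chr4:4290105-4290404, minus strand), UTP20 (chr12:101279855-101280154, plus strand) and NOP16 (chr5:176388549-176388848, minus strand).
DDX21: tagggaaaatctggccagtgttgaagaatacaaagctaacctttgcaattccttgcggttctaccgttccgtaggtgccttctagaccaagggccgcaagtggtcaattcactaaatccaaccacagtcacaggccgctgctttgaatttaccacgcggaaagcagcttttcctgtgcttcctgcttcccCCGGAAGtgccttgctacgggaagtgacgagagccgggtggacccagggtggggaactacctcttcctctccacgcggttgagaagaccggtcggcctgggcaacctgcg
LYAR: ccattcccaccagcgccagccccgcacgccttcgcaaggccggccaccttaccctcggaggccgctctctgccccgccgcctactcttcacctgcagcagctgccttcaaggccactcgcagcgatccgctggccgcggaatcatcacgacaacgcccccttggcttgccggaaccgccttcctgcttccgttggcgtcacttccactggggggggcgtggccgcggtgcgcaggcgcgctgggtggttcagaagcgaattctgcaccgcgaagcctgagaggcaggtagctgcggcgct
UTP20: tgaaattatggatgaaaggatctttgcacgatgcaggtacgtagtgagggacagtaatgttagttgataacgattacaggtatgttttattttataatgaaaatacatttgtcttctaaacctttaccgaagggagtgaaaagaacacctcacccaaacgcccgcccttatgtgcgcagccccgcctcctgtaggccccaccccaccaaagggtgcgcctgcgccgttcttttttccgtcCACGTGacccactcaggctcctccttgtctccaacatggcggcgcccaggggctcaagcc
NOP16: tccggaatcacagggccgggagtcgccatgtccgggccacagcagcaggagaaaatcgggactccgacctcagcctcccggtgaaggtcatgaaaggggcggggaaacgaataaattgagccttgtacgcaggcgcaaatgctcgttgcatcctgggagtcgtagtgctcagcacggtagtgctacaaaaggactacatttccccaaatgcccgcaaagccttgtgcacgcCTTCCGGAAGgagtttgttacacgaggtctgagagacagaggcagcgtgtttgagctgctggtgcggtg

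The windows were searched on both strands for the E-box CACGTG, which MYC and related factors bind, for CCGGAAG, an ETS core whose other strand reads CTTCCGG, for the palindrome that ZBTB33 binds, and for AAGATGGCG, the core of YY1 sites. CACGTG was in 15 of 40 member windows (37.5%), against 9.81% of the 11255 windows of genes tested and 7.43% of all 27305 windows. CCGGAAG was in 15 of 40 (37.5%), against 17.2% of the windows of genes tested and 10.7% of all. AAGATGGCG was in 3 member windows (7.5%), of GRWD1, IMP4 and NIP7, against 3.53% and 1.85%. The ZBTB33 palindrome was in 1 (2.5%), of NOP14, against 0.791% and 0.469%. In the printed windows UTP20 had CACGTG with its first base 10 bases before the start, and DDX21 had CCGGAAG 60 bases before it. NOP16 had CCGGAAG on both strands, overlapping, with first bases 19 and 16 bases before the start. LYAR had none of the 4 motifs in its window. A match describes letters only, and binding was not measured.

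The RNA polymerase I step moved in both directions. POLR1B, the second-largest subunit of the enzyme, stood at 6.88 and 6.91 in KBTBD8 shRNA embryoid bodies, against 7.36 and 7.45 in KBTBD8 shRNA pluripotent cells, and fell by 0.51 ± 0.15 (log2, SE, adjusted p 0.016). It fell by 0.78 ± 0.13 with the control shRNA and by 0.34 ± 0.13 in untransduced cells. POLR1A, the largest subunit, fell by 0.41 ± 0.09 with the control shRNA and by 0.30 ± 0.09 in untransduced cells, and its difference with the KBTBD8 shRNA was −0.26 ± 0.11 (adjusted p 0.069). The untransduced calls of POLR1B and POLR1A were lost after centring each array on its median (limma, adjusted p 0.087 and 0.053). They were also lost on all 18 arrays (adjusted p 0.243 and 0.092). Untransduced POLR1B stood at 7.44, 6.95 and 6.95 in pluripotent cells, against 6.71, 6.84 and 6.78 in embryoid bodies. UBTF, the upstream binding factor that opens ribosomal RNA genes, fell with the control shRNA (−0.32 ± 0.08, adjusted p 0.0025), and its difference was −0.04 ± 0.10 with the KBTBD8 shRNA and was not called untransduced either (adjusted p 0.784 and 0.966).

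The members that rose belong to this step. RRN3, the factor that makes RNA polymerase I competent to initiate, stood at 7.99, 7.86 and 7.89 in control shRNA embryoid bodies, against 7.49, 7.52 and 7.68 in control shRNA pluripotent cells. It rose by 0.35 ± 0.10 (log2, SE, adjusted p 0.0063), and its differences were 0.02 ± 0.12 with the KBTBD8 shRNA and 0.20 ± 0.10 untransduced, with adjusted p of 0.90 and 0.10. RRN3 has near-identical pseudogene copies on other probe sets, which makes its value uncertain. POLR1E, a subunit of the dimer that helps the enzyme initiate and elongate, stood at 8.79, 8.86 and 8.83 in control shRNA embryoid bodies, against 8.47, 8.65 and 8.68, and at 8.81, 8.78 and 8.75 in untransduced embryoid bodies, against 8.67, 8.45 and 8.42. POLR1E rose by 0.23 ± 0.08 with the control shRNA and by 0.26 ± 0.08 untransduced (adjusted p 0.031 and 0.014), and its difference with the KBTBD8 shRNA was 0.03 ± 0.10. The control shRNA call of POLR1E was lost without control shRNA pluripotent replicate 1 (0.17, adjusted p 0.141), without any 1 of the 3 control shRNA embryoid body arrays (0.21 to 0.25) and after centring each array on its median (0.19, adjusted p 0.145). Its untransduced call was lost without untransduced pluripotent replicate 3 (0.22, adjusted p 0.0598). TAF1D, a subunit of the promoter selectivity complex, was not called in any differentiation.

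**Figure D2:**
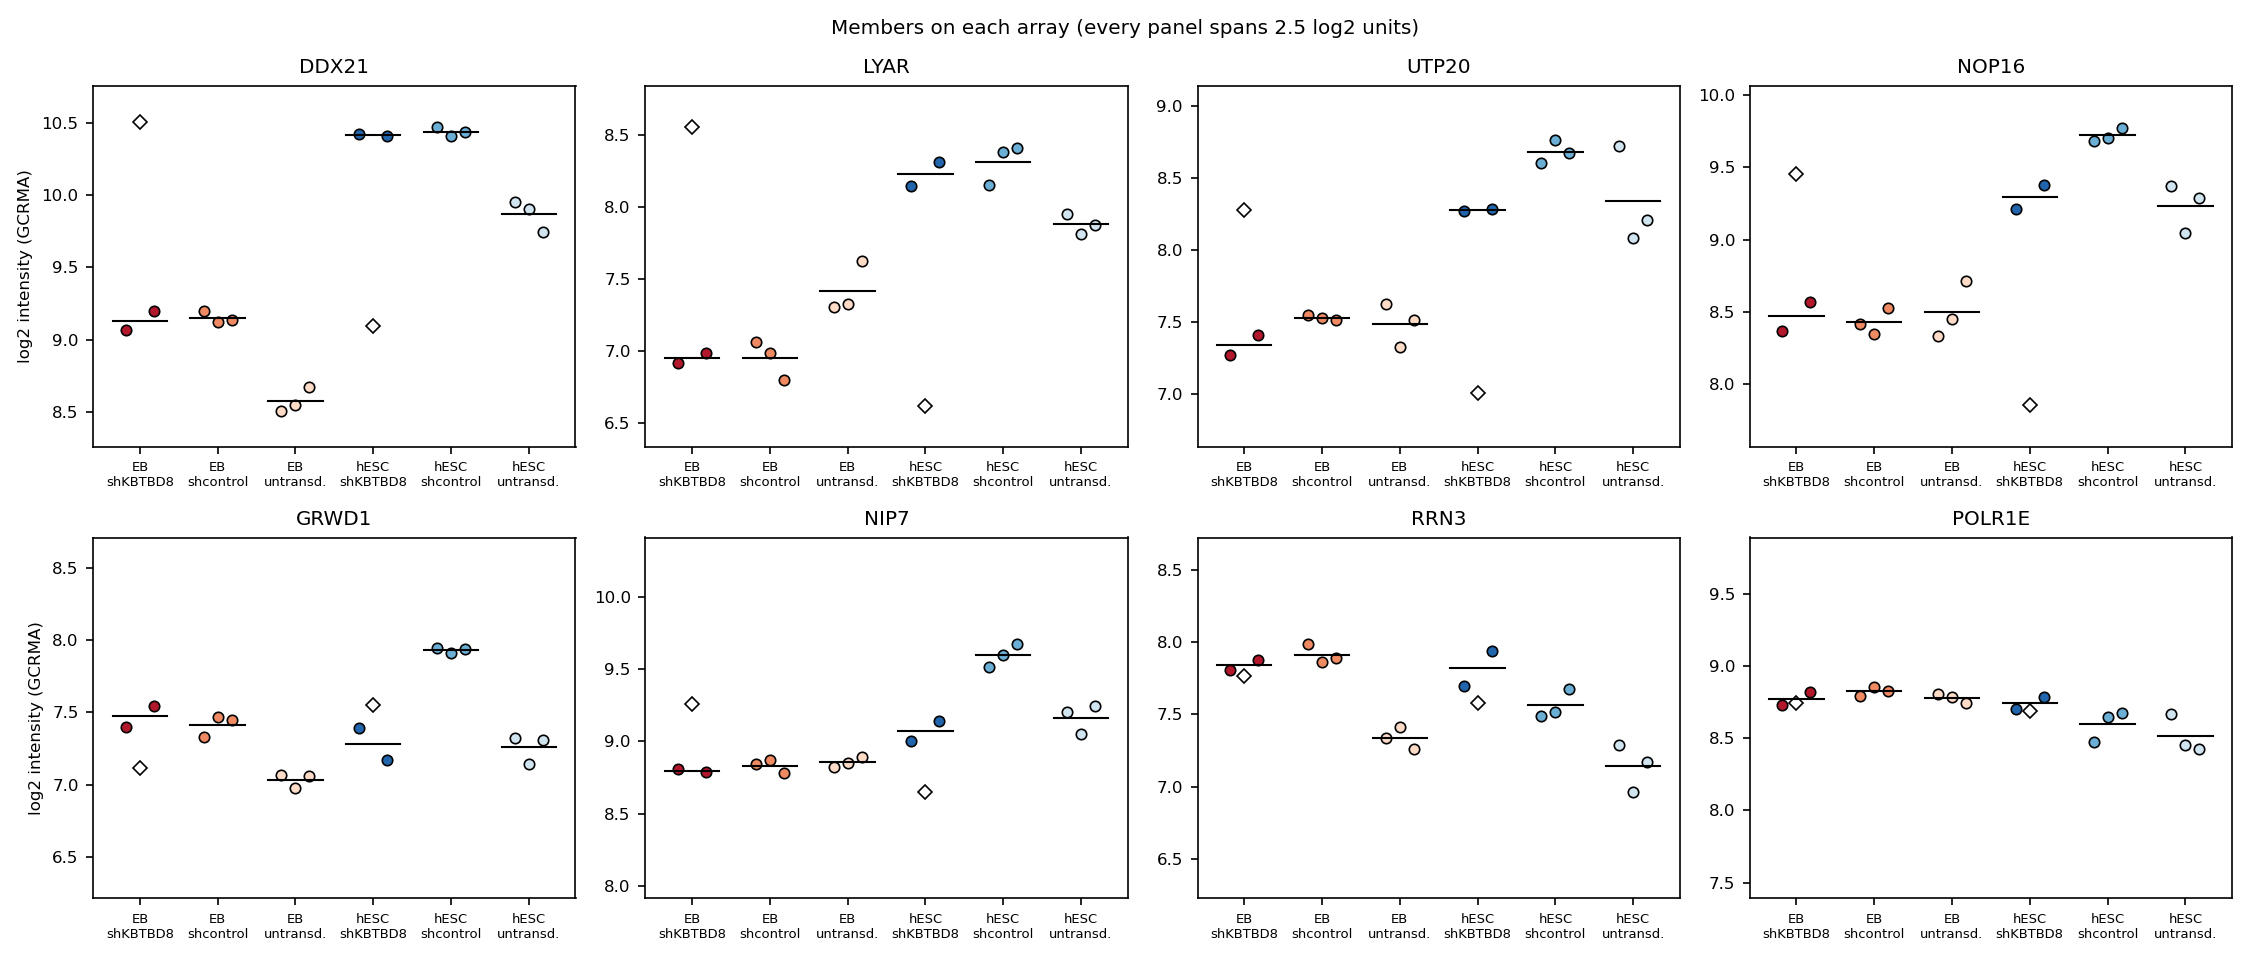
Log2 intensity (GCRMA, y axis) of 8 members on each array, by group; bars are group means, open diamonds are the 2 arrays read apart, and every panel spans 2.5 log2 units. DDX21, LYAR, UTP20 and NOP16 are lower on every embryoid body array in the fit than on every pluripotent array of the same treatment, GRWD1 and NIP7 are highest in control shRNA pluripotent cells, and RRN3 is higher on transduced than on untransduced arrays of the same state.

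Small subunit factors fell in 10 of 18 cases with the KBTBD8 shRNA, in 14 with the control shRNA and in 11 in untransduced cells, and none rose. Of all genes tested 21.1%, 25.2% and 26.3% were called lower, in the same order. UTP20, a component of the small subunit processome, stood at 7.27 and 7.41 in KBTBD8 shRNA embryoid bodies, against 8.27 and 8.29 in KBTBD8 shRNA pluripotent cells. Its control shRNA values were 7.55, 7.53 and 7.51, against 8.60, 8.76 and 8.67. In untransduced cells they were 7.63, 7.33 and 7.52, against 8.72, 8.08 and 8.21. The states did not overlap, and UTP20 fell by 0.94 ± 0.16, 1.15 ± 0.13 and 0.85 ± 0.13 with the KBTBD8 shRNA, with the control shRNA and untransduced (log2, SE, adjusted p 1.9e-04, 2.0e-06 and 4.0e-05).

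RRP9, which binds the U3 snoRNA in the processome, fell by 0.41 ± 0.12 with the KBTBD8 shRNA, by 0.97 ± 0.10 with the control shRNA and by 0.80 ± 0.10 untransduced. LTV1, needed for the export of the small subunit precursor, fell by 0.87 ± 0.11 with the KBTBD8 shRNA, by 0.74 ± 0.09 with the control shRNA and by 0.23 ± 0.09 untransduced. HEATR1 and WDR43, both of the early processome, fell by similar amounts under the 3 treatments. HEATR1 fell by 0.53, 0.50 and 0.58, and WDR43 by 0.67, 0.58 and 0.66, with the KBTBD8 shRNA, with the control shRNA and untransduced. The kinases RIOK1 and RIOK2 act on late cytoplasmic precursors. RIOK1 fell by 0.72 ± 0.11 with the KBTBD8 shRNA and by 0.33 ± 0.09 with the control shRNA, with a difference of 0.07 ± 0.09 untransduced. RIOK2 was not called lower in any differentiation.

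Large subunit factors fell in 6 of 11 cases with the KBTBD8 shRNA, in 10 with the control shRNA and in 10 in untransduced cells, and none rose. The shares of all genes tested called lower were 21.1%, 25.2% and 26.3%, in the same order. NOP16, a nucleolar protein bound to large subunit precursors, stood at 8.37 and 8.57 in KBTBD8 shRNA embryoid bodies, against 9.21 and 9.38 in KBTBD8 shRNA pluripotent cells. Its control shRNA values were 8.42, 8.34 and 8.53, against 9.68, 9.71 and 9.78. In untransduced cells they were 8.33, 8.45 and 8.71, against 9.37, 9.04 and 9.29. NOP16 fell by 0.83 ± 0.13, 1.29 ± 0.11 and 0.74 ± 0.11 with the KBTBD8 shRNA, with the control shRNA and untransduced, with no overlap between states (log2, SE, adjusted p 1.3e-04, 7.6e-08 and 3.0e-05).

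PES1, BOP1 and WDR12 form the PeBoW complex on large subunit precursors, and WDR12 alone of them was called under all 3 treatments. WDR12 fell by 0.37 ± 0.10 with the KBTBD8 shRNA, by 0.48 ± 0.08 with the control shRNA and by 0.61 ± 0.08 untransduced. PES1 was called lower with the control shRNA alone (−0.53 ± 0.09), with differences of −0.05 ± 0.12 with the KBTBD8 shRNA and −0.20 ± 0.09 untransduced. BOP1 was called lower in untransduced cells alone (−0.43 ± 0.10), with differences of −0.01 ± 0.12 with the KBTBD8 shRNA and −0.20 ± 0.10 with the control shRNA. In the fit of the difference between treatments neither PES1 nor BOP1 passed (adjusted p 0.051 and 0.52 for the KBTBD8 shRNA against the control shRNA, and 0.11 and 0.28 for the control shRNA against untransduced).

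Among proteins of snoRNPs, DKC1, the pseudouridine synthase of box H/ACA particles, fell by 0.73 ± 0.09 with the KBTBD8 shRNA, by 0.47 ± 0.07 with the control shRNA and by 0.39 ± 0.07 untransduced. NOP58, a core protein of box C/D particles, fell by 0.64 ± 0.11 with the KBTBD8 shRNA and by 0.39 ± 0.09 with the control shRNA, and its untransduced difference was −0.20 ± 0.09 (adjusted p 0.064). FBL stayed between 11.88 and 12.10 on all 16 arrays and was not called in any comparison.

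Other genes of the pathway, from a list of 118 of which 111 were tested, mostly fell where they were called: 47 fell and 2 rose with the KBTBD8 shRNA, 73 fell and 3 rose with the control shRNA, and 47 fell and 11 rose in untransduced cells. Of all genes tested 21.1% were called lower and 17.3% higher with the KBTBD8 shRNA. The shares were 25.2% and 23.1% with the control shRNA, and 26.3% and 25.8% untransduced. MAK16, of the large subunit route, fell by 1.19 ± 0.14, 1.02 ± 0.11 and 0.77 ± 0.11 under the KBTBD8 shRNA, the control shRNA and no transduction. NOP53, another large subunit factor, rose by 0.62 ± 0.09, 0.47 ± 0.08 and 0.63 ± 0.08 under the same 3 treatments. TCOF1, which encodes treacle, the nucleolar protein mutated in Treacher Collins syndrome, fell by 0.55 ± 0.08 with the control shRNA and by 0.56 ± 0.08 untransduced, with −0.26 ± 0.10 under the KBTBD8 shRNA (adjusted p 0.053). NOLC1, a related nucleolar scaffold protein, fell by 0.42 ± 0.10 with the KBTBD8 shRNA, by 0.55 ± 0.08 with the control shRNA and by 0.33 ± 0.08 untransduced. MYC fell by 1.49 ± 0.12, 1.43 ± 0.10 and 0.82 ± 0.10 with the KBTBD8 shRNA, with the control shRNA and untransduced (log2, SE, adjusted p 9.8e-08, 8.7e-09 and 3.9e-06).

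Many markers of cell state differed between embryoid bodies and pluripotent cells, whereas cell cycle genes moved in both directions under every treatment. Of 12 pluripotency genes 10 fell in each differentiation, and their summed linear intensity was 9530 to 10458 in KBTBD8 shRNA embryoid bodies against 19650 to 19885 in KBTBD8 shRNA pluripotent cells. It was 8721 to 9182 against 19123 to 20344 with the control shRNA, and 5526 to 5960 against 16311 to 18636 in untransduced cells. Of 17 cell cycle genes 4 rose and 4 fell with the KBTBD8 shRNA, 2 rose and 11 fell with the control shRNA, and 5 rose and 5 fell untransduced. Their summed intensity was 11243 to 11732 in KBTBD8 shRNA embryoid bodies against 11765 to 12146 in KBTBD8 shRNA pluripotent cells, and 10686 to 11249 against 12880 to 13810 with the control shRNA. In untransduced cells it was 12272 to 13416 in embryoid bodies against 12490 to 12600 in pluripotent cells. Of 11 neural plate genes 10 rose with the KBTBD8 shRNA, 8 with the control shRNA and 10 untransduced, and none fell. Their sum was 4456 to 5078 in KBTBD8 shRNA embryoid bodies against 598 to 613 in KBTBD8 shRNA pluripotent cells, 3640 to 3767 against 742 to 755 with the control shRNA, and 6089 to 6179 against 1089 to 1242 untransduced. Of 10 neural crest genes 7 rose and 1 fell with the KBTBD8 shRNA, 10 rose with the control shRNA, and 5 rose and 2 fell untransduced. Their sum was 1898 to 2341 in KBTBD8 shRNA embryoid bodies against 681 to 707 in KBTBD8 shRNA pluripotent cells, 6790 to 7383 against 785 to 831 with the control shRNA, and 714 to 769 against 728 to 775 untransduced. The 8 endoderm genes summed to 354 to 415 in KBTBD8 shRNA embryoid bodies against 378 to 380 in KBTBD8 shRNA pluripotent cells. The same sums were 1000 to 1096 against 558 to 623 with the control shRNA and 296 to 300 against 314 to 348 untransduced. The sum of 8 mesoderm genes was 571 to 606 against 1022 to 1037 with the KBTBD8 shRNA. With the control shRNA it was 532 to 552 against 1040 to 1083, and untransduced 322 to 344 against 625 to 744. The part of these markers in the decrease of the module was not tested.

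**Figure D3:**
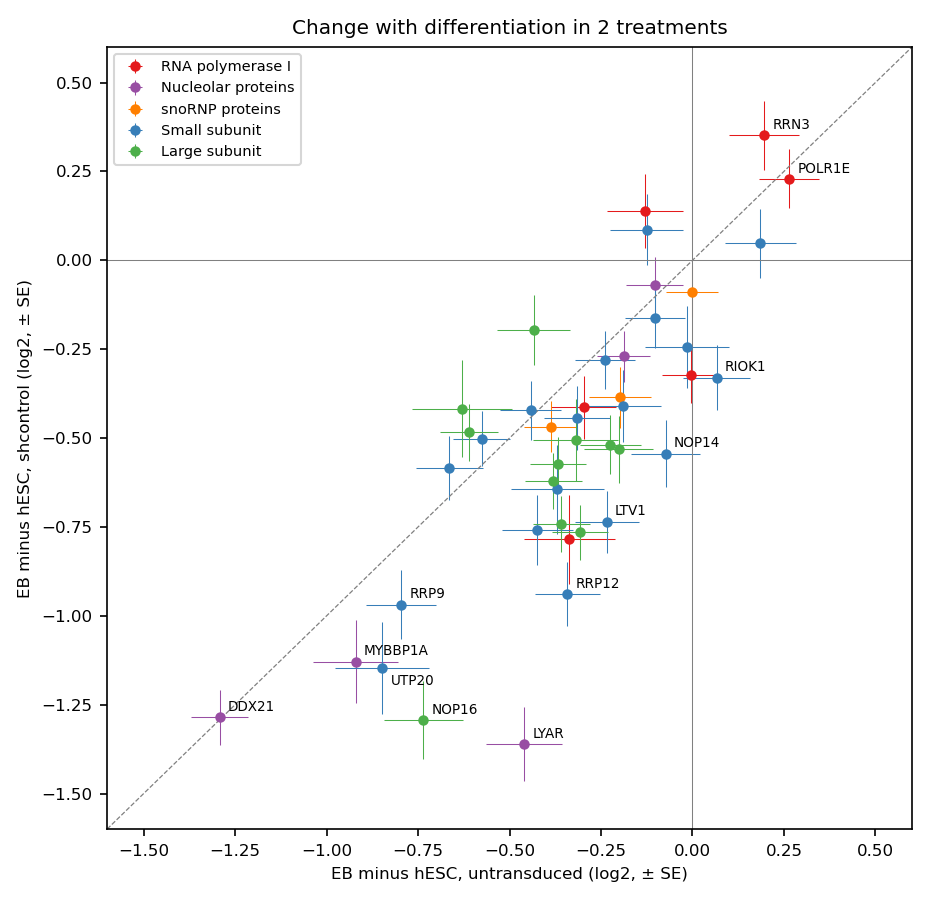
Log2 difference of each measured member between embryoid bodies and pluripotent cells, with the control shRNA (y axis) against untransduced (x axis); bars are standard errors, colours are steps, and the dashed line marks equal change. LYAR lies at −1.36 with the control shRNA and −0.46 untransduced, whereas DDX21 lies on the line at −1.29 in both, and RRN3 and POLR1E lie above 0 on both axes.

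The log2 change with differentiation was lower with the control shRNA than in untransduced cells for 8 members: LYAR, RRP12, NOP16, LTV1, NOP14, NIP7, RIOK1 and RRP1B. The fit of the difference itself called 8 members lower and 0 higher, where 8.61% of all genes tested were called lower and 8.26% higher; 0 members were called higher also at an unadjusted p under 0.05. LYAR differed by −0.90 ± 0.15 (log2, SE, adjusted p 4.1e-04), and RRP12, of the small subunit route, by −0.60 ± 0.13 (adjusted p 0.0038). RRP12 stood at 6.67, 6.66 and 6.66 in control shRNA embryoid bodies, against 7.59, 7.54 and 7.67 in control shRNA pluripotent cells, and at 6.73, 6.61 and 6.63 in untransduced embryoid bodies, against 7.07, 6.98 and 6.93. The 2 groups of embryoid bodies overlapped, and the pluripotent groups did not. NOP16 differed by −0.56 ± 0.15, LTV1 by −0.50 ± 0.12 and NOP14, a processome protein, by −0.47 ± 0.13 (adjusted p 0.020, 0.010 and 0.022).

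In the fit of all 18 arrays 0 of these 8 passed in limma (2 members at an unadjusted p under 0.05, with 5.24% of all genes tested called), although the same 12 arrays enter each difference, since the shared spread then includes the 2 arrays read apart. The count was 4 without untransduced embryoid body replicate 3 and 5 without control shRNA pluripotent replicate 3. NOP16 lost its call without untransduced embryoid body replicate 3 (−0.45, adjusted p 0.0564) and without control shRNA embryoid body replicate 2 (−0.52, adjusted p 0.0527). NOP14 lost it without untransduced embryoid body replicate 3 (−0.44), control shRNA embryoid body replicate 1 (−0.44) or control shRNA pluripotent replicate 3 (−0.41). MYC differed by −0.62 ± 0.14 in the same fit, and 8 of the 17 cell cycle genes were called lower; their part in this result was not tested.

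Within 1 state, many members were higher in control shRNA pluripotent cells than in untransduced ones. The labels name no batch, and the array medians of transduced and untransduced samples did not overlap. Transduction and separate handling of cultures or arrays cannot be told apart here. In pluripotent cells 22 members were higher and 1 was lower with the control shRNA than untransduced, where 17.0% of all genes tested were called higher and 12.1% lower. In embryoid bodies 11 were higher and 5 lower, where 24.6% were called higher and 20.2% lower. These directions depend on scaling: after each array was centred on its median, 14 rose and 2 fell in pluripotent cells, while in embryoid bodies 4 rose and 12 fell and the median of the members moved to −0.12, against 0.05 uncentred. Centring shifted the median of all genes to −0.06 in pluripotent cells, against 0.04 uncentred, and to −0.14 in embryoid bodies, against 0.04 uncentred. Of all genes tested, centring called 7.98% higher and 17.3% lower in pluripotent cells, and 12.5% higher and 33.1% lower in embryoid bodies. With all 18 arrays, 9 members rose and 1 fell in pluripotent cells, where 12.1% of all genes were called, and 5 rose and 0 fell in embryoid bodies, where 27.1% were (in limma, 2 were lower at an unadjusted p under 0.05).

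The 8 members called higher with the control shRNA in both states were DDX21, GRWD1, MYBBP1A, NAT10, NOP2, RRN3, TSR1 and WDR43, where 9.14% of all genes tested were called higher in both. After centring, fewer members than these 8 were higher in embryoid bodies, so not all of them kept both calls. MYBBP1A stood at 7.48, 7.55 and 7.71 in control shRNA embryoid bodies, against 6.78, 6.84 and 7.03 untransduced, and at 8.64, 8.66 and 8.82 in control shRNA pluripotent cells, against 7.94, 7.93 and 7.55 untransduced. Neither state showed an overlap, and MYBBP1A rose by 0.69 ± 0.12 in embryoid bodies and by 0.90 ± 0.12 in pluripotent cells (log2, SE, adjusted p 2.1e-04 and 9.8e-05). RRN3 stood at 7.99, 7.86 and 7.89 in control shRNA embryoid bodies, against 7.34, 7.41 and 7.26 untransduced, and rose there by 0.58 ± 0.10 (adjusted p 1.9e-04). In pluripotent cells RRN3 rose by 0.42 ± 0.10 (adjusted p 0.0046), and after centring it was not called there (0.32, adjusted p 0.052).

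Of the other members of the RNA polymerase I step, POLR1B, POLR1A and UBTF rose in pluripotent cells, by 0.55 ± 0.13, 0.26 ± 0.09 and 0.26 ± 0.08, and after centring only POLR1B of these 3 was called. DDX21 rose by 0.58 ± 0.08 in embryoid bodies and by 0.57 ± 0.08 in pluripotent cells. NAT10, the acetyltransferase of small subunit RNA, rose by 0.45 ± 0.09 in embryoid bodies and by 0.58 ± 0.09 in pluripotent cells, and after centring NAT10 in embryoid bodies was no longer called (0.28, adjusted p 0.0529). TSR1, a late small subunit factor, rose by 0.55 ± 0.08 in embryoid bodies and by 0.53 ± 0.08 in pluripotent cells. NOP2, a methyltransferase of large subunit RNA, rose by 0.38 ± 0.08 and 0.62 ± 0.08, and RRP12 rose in pluripotent cells (0.60 ± 0.09) with a difference of 0.01 ± 0.09 in embryoid bodies.

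Some members went the other way. NOB1, the nuclease that cuts the end of small subunit RNA, stood at 8.52, 8.64 and 8.62 in control shRNA embryoid bodies, against 8.85, 8.88 and 8.97 untransduced, and at 8.47, 8.39 and 8.65 in control shRNA pluripotent cells, against 9.16, 9.00 and 8.91 untransduced. It fell by 0.31 ± 0.10 in embryoid bodies and by 0.52 ± 0.10 in pluripotent cells (adjusted p 0.022 and 0.0016). In embryoid bodies LTV1 also fell by 0.58 ± 0.09, LYAR by 0.47 ± 0.10, NOP58 by 0.39 ± 0.09 and RIOK2 by 0.28 ± 0.10. The embryoid body call of NOB1 was lost without untransduced replicate 3 (−0.27, adjusted p 0.0788) and without control shRNA replicate 1 (−0.27, adjusted p 0.0749). The call of RIOK2 was lost without untransduced replicate 1 or 3 or control shRNA replicate 2 or 3 (−0.28 to −0.22).

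The other pathway genes tested split as 13 higher and 35 lower in embryoid bodies (6 and 58 centred) and 31 higher and 14 lower in pluripotent cells (11 and 16 centred). TTF1, which terminates RNA polymerase I transcription, fell by 0.77 ± 0.10 in embryoid bodies and by 0.68 ± 0.10 in pluripotent cells. TAF1C, of the promoter selectivity complex, rose by 0.60 ± 0.09 and 0.68 ± 0.09. TCOF1 rose by 0.52 ± 0.08 and 0.51 ± 0.08, and MYCN, a MYC relative active in stem cells, by 0.65 ± 0.09 and 0.70 ± 0.09, each in embryoid bodies and in pluripotent cells. Embryoid bodies with the control shRNA also carried more RNA of 9 of 10 neural crest genes than untransduced ones, with a summed intensity of 6790 to 7383 against 714 to 769. In the same comparison 9 of 12 pluripotency genes were higher (8721 to 9182 against 5526 to 5960), 5 of 8 endoderm genes were higher (1000 to 1096 against 296 to 300), and 2 of 11 neural plate genes were higher and 8 lower (3640 to 3767 against 6089 to 6179). The summed intensity of 8 mesoderm genes was 532 to 552 against 322 to 344. The part of these markers in the differences of the members was not tested.

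The shRNA against KBTBD8 was compared with the control shRNA within each state. KBTBD8 itself was low on the embryoid body arrays, and its knockdown could not be read there. In embryoid bodies 0 of 43 members passed in limma, where 2.84% of all genes tested were called higher and 2.96% lower, and 0 members had an unadjusted p under 0.05. Differences there ran from −0.19 to 0.20 with standard errors of 0.08 to 0.15, and the members' median was 0.01. The largest were those of NOB1 (0.20 ± 0.11), UTP20 (−0.19 ± 0.14) and RIOK1 (−0.17 ± 0.10), with adjusted p of 0.444, 0.627 and 0.510. NOB1 stood at 8.61 and 8.97, against 8.52, 8.64 and 8.62 with the control shRNA, so the groups overlapped. Without KBTBD8 shRNA replicate 1 the differences were 0.38 for NOB1, −0.12 for UTP20 and −0.08 for RIOK1, and without KBTBD8 shRNA replicate 3 they were 0.02, −0.26 and −0.25. With all 18 arrays 0 members passed as well (2.48% of all genes did), and the differences of UTP20 and RIOK1 were 0.12 each.

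In pluripotent cells 8 members were lower and 2 were higher with the KBTBD8 shRNA, where 5.58% of all genes tested were called lower and 8.43% higher. The 8 were GRWD1, IMP4, MYBBP1A, NIP7, NOP16, PES1, RRP9 and TSR1, of which 7, without NOP16, were also called on all 18 arrays, where 5.13% of all genes were. Those calls are no separate support, since the array added to the pluripotent group lay with the embryoid bodies, where most members were lower. At an unadjusted p under 0.05 in limma 20 members were lower and 0 higher on all 18 arrays, against 12 and 5 on 16. None of the 6 members of the RNA polymerase I step was called, with differences of −0.26 to 0.26. The large subunit step had 4 of 11 lower and the small subunit step 3 of 18 lower and 1 higher. The count of 10 was 4 (GRWD1, NIP7, PES1 and RRP9) after centring each array, where 9.94% of all genes were called, 3 without KBTBD8 shRNA replicate 1 and 5 without KBTBD8 shRNA replicate 3; with 1 array left in a group, its spread is taken to be that of the other groups.

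GRWD1, a chaperone of a large subunit protein and a partner of replication licensing factors, stood at 7.40 and 7.17 in KBTBD8 shRNA pluripotent cells, against 7.95, 7.91 and 7.94 with the control shRNA. It fell by 0.65 ± 0.09 (log2, SE, adjusted p 2.8e-04), with no overlap. NIP7, needed for precursor cleavage, stood at 9.00 and 9.14, against 9.51, 9.60 and 9.68, and fell by 0.52 ± 0.09 (adjusted p 9.0e-04). RRP9 stood at 8.32 and 8.34, against 8.69, 8.81 and 9.05, and fell by 0.52 ± 0.11 (adjusted p 0.0045). All arrays of the KBTBD8 shRNA in the fit lay below all control shRNA arrays for these 3 genes. On the 2 arrays read apart GRWD1 stood at 7.12 (labelled embryoid body) and 7.55 (labelled pluripotent).

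PES1 fell by 0.44 ± 0.11 (adjusted p 0.011) and MYBBP1A by 0.44 ± 0.13 (adjusted p 0.035). PES1 lost its call without KBTBD8 shRNA replicate 1 (−0.34, adjusted p 0.133), and MYBBP1A lost it without any 1 of the 5 arrays (−0.55 to −0.33). RIOK2 rose by 0.36 ± 0.11 and NOP58 by 0.34 ± 0.10 (adjusted p 0.036 and 0.027). RIOK2 lost its call without control shRNA replicate 1 or 3 or KBTBD8 shRNA replicate 1 or 3 (0.27 to 0.45), and NOP58 without control shRNA replicate 1 or KBTBD8 shRNA replicate 1 or 3 (0.27 to 0.36). After centring, the differences were 0.37 for RIOK2, 0.35 for NOP58 and −0.43 for MYBBP1A, and none of the 3 was called (adjusted p 0.060, 0.071 and 0.079). On all 18 arrays RIOK2 and NOP58 differed by 0.19 and 0.04 and were not called.

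The comparisons of the KBTBD8 shRNA with the control shRNA and of the control shRNA with untransduced pluripotent cells share the control shRNA arrays, so their differences are not independent. The 8 members called lower with the KBTBD8 shRNA were all called higher with the control shRNA than in untransduced pluripotent cells. Among all genes tested 17.0% were called higher in the latter comparison. With the control shRNA against untransduced cells GRWD1 differed by 0.68 ± 0.08, NIP7 by 0.43 ± 0.08 and PES1 by 0.38 ± 0.09 (log2, SE). A comparison of KBTBD8 shRNA with untransduced pluripotent cells was added after the values were seen. There 12 members were higher and 2 lower, where 17.2% of all genes tested were called higher and 11.1% lower. Centred on array medians, 4 members were higher and 2 lower, where 9.03% of all genes were higher and 14.8% lower. Of the 8 members only MYBBP1A was called against untransduced cells, and it was higher (0.46 ± 0.13, adjusted p 0.016). GRWD1 differed from untransduced cells by 0.02 ± 0.09, NIP7 by −0.09 ± 0.09, PES1 by −0.06 ± 0.11, NOP16 by 0.06 ± 0.12 and RRP9 by −0.24 ± 0.11. Untransduced pluripotent cells had GRWD1 at 7.32, 7.14 and 7.31, a range that overlaps the 7.40 and 7.17 of the KBTBD8 shRNA cells.

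RRN3 was higher than in untransduced pluripotent cells by 0.68 ± 0.11 with the KBTBD8 shRNA (7.70 and 7.94, against 7.29, 6.96 and 7.17), NOP2 by 0.64 ± 0.09, DDX21 by 0.55 ± 0.09 and RIOK1 by 0.52 ± 0.10 (adjusted p 3.4e-04, 1.0e-04, 3.0e-04 and 0.0019). IMP3, a U3 snoRNP protein, was lower by 0.36 ± 0.11, and NOB1 by 0.33 ± 0.11 (log2, SE); IMP3 stood at 8.42 and 8.32, against 8.85, 8.50 and 8.82. The count of 14 was 3 on all 18 arrays (14.1% of all genes), 4 without KBTBD8 shRNA replicate 3 and 9 without untransduced replicate 3. MYBBP1A lost its call without untransduced replicate 3 (0.33) or KBTBD8 shRNA replicate 3 (0.35). NOB1 and IMP3 lost theirs without either KBTBD8 shRNA array (−0.36 to −0.31 for NOB1 and −0.41 to −0.31 for IMP3) and without untransduced replicate 1 (−0.26 and −0.30), NOB1 also without untransduced replicate 2 (−0.35) and IMP3 without untransduced replicate 3 (−0.31).

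In embryoid bodies the KBTBD8 shRNA had 12 members higher and 4 lower than untransduced, where 22.5% of all genes tested were called higher and 18.6% lower. Centred, 4 were higher and 8 lower, where 11.5% of all genes were higher and 30.6% lower. With all 18 arrays, 10 were higher and 0 lower in limma (0 lower at an unadjusted p under 0.05), where 31.7% of all genes were called. MYBBP1A was higher by 0.85 ± 0.13, TSR1 by 0.61 ± 0.09, DDX21 by 0.55 ± 0.09, RRN3 by 0.50 ± 0.11 and NAT10 by 0.48 ± 0.10, and the last was not called after centring (0.31, adjusted p 0.0549). LTV1 was lower by 0.63 ± 0.10, LYAR by 0.47 ± 0.12, NOP58 by 0.30 ± 0.10 and RIOK1 by 0.28 ± 0.10. NOP58 lost its call without untransduced replicate 3 (−0.27) or KBTBD8 shRNA replicate 1 (−0.23), and RIOK1 without untransduced replicate 2 or 3 or KBTBD8 shRNA replicate 1 (−0.27 to −0.19). The differences of LYAR and RIOK1 on all 18 arrays were 0.07 and 0.01.

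**Figure D4:**
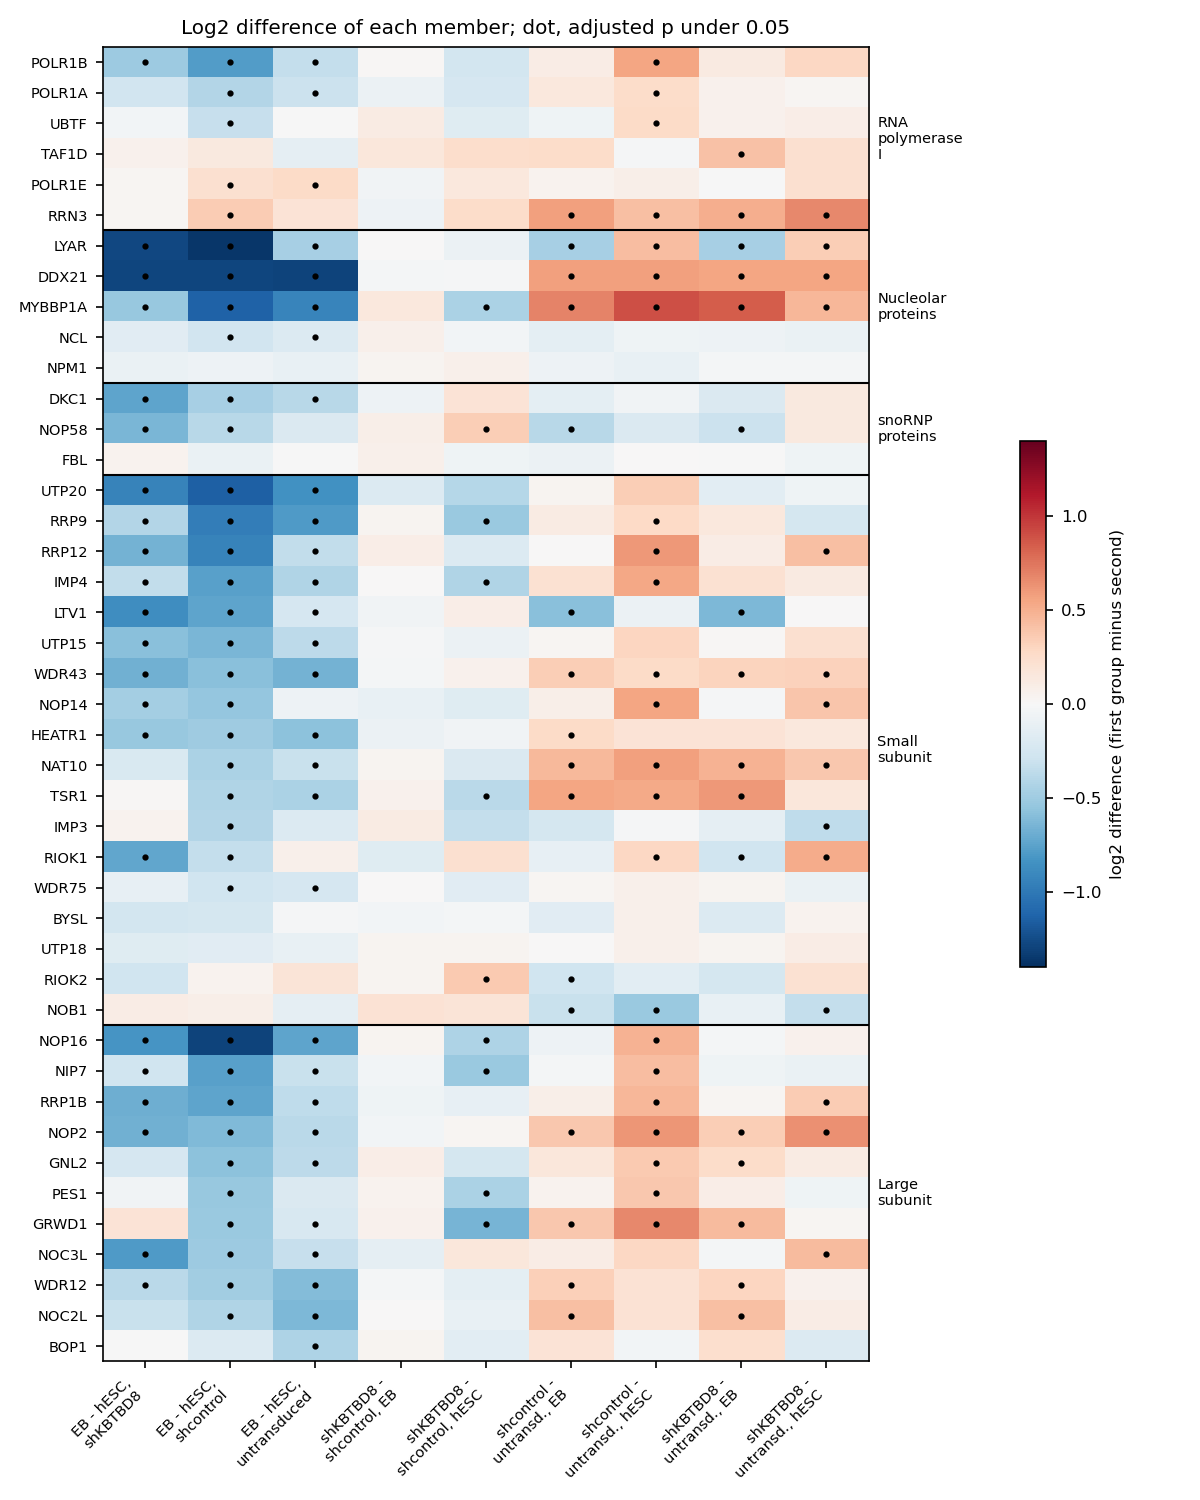
Log2 difference (colour) of each measured member (rows, by step) in 9 comparisons (columns, first group minus second, 16 arrays); a dot marks an adjusted p under 0.05. The differentiation columns are mostly blue below the RNA polymerase I step, the embryoid body column of KBTBD8 shRNA minus control shRNA has no dot, and GRWD1, NIP7 and RRP9 are blue with a dot in its pluripotent counterpart.

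The log2 change with differentiation was higher under the KBTBD8 shRNA than under the control shRNA for 4 members, where 3.74% of all genes tested were called higher and 6.12% lower in this difference. No member was called lower in limma (3 at an unadjusted p under 0.05). GRWD1 stood at 7.40 and 7.55 in KBTBD8 shRNA embryoid bodies, against 7.40 and 7.17 in KBTBD8 shRNA pluripotent cells, and at 7.33, 7.47 and 7.45 in control shRNA embryoid bodies, against 7.95, 7.91 and 7.94. The difference between treatments was 0.71 ± 0.13 for GRWD1 (log2, SE, adjusted p 0.0027), 0.56 ± 0.15 for RRP9 (adjusted p 0.030), 0.49 ± 0.12 for NIP7 (adjusted p 0.019) and 0.43 ± 0.13 for TSR1 (adjusted p 0.047). In embryoid bodies the KBTBD8 and control shRNA groups overlapped for GRWD1, RRP9 and NIP7, and TSR1 differed by 0.06 ± 0.09. With all 18 arrays, where 3.67% of all genes were called, the 4 called members were NIP7, PES1, RRP9 and TSR1, and GRWD1 differed by 0.50 (adjusted p 0.092). Those calls are no separate support, since the 2 arrays added lay with the other state and shrink the decrease under the KBTBD8 shRNA. At an unadjusted p under 0.05 in limma 19 members were higher and 0 lower on all 18 arrays, against 11 and 3 on 16.

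GRWD1 kept its call whichever of the 10 arrays was left out, and the other 3 calls depended on single arrays. The count was 1 without KBTBD8 shRNA pluripotent replicate 1 or KBTBD8 shRNA embryoid body replicate 3, and 2 without KBTBD8 shRNA pluripotent replicate 3, control shRNA pluripotent replicate 3 or control shRNA embryoid body replicate 1 or 2. It was 1 after centring each array, where 7.13% of all genes were called, and 7 after quantile normalization between arrays, where 11.9% were. TSR1 lost its call without any 1 of the 10 arrays (0.36 to 0.50), and NIP7 without KBTBD8 shRNA pluripotent replicate 1 (0.42) or either KBTBD8 shRNA embryoid body array (0.48 and 0.50). RRP9 lost it without either KBTBD8 shRNA pluripotent array (0.55 and 0.57), KBTBD8 shRNA embryoid body replicate 3 (0.46), control shRNA pluripotent replicate 3 (0.46) or control shRNA embryoid body replicate 1 or 2 (0.54 and 0.55).

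Of the 111 other pathway genes tested, 0 rose and 1 fell with the KBTBD8 shRNA in embryoid bodies, namely NIFK, a large subunit factor (−0.33 ± 0.08, adjusted p 0.012). Of all genes tested 2.84% were called higher and 2.96% lower there, and 8.43% higher and 5.58% lower in pluripotent cells. In pluripotent cells 2 rose and 13 fell, among them POLR2L, a subunit shared by the RNA polymerases (−0.63 ± 0.11), NOL6, of the processome (−0.57 ± 0.10), URB1 (−0.53 ± 0.11) and the methyltransferase EMG1 (−0.53 ± 0.12). TCOF1 differed by −0.23 ± 0.09 in pluripotent cells and was not called (adjusted p 0.10). MYC was higher by 0.40 ± 0.11 with the KBTBD8 shRNA in pluripotent cells (adjusted p 0.024), though on all 18 arrays it differed by −0.08, and MYCN was lower by 0.43 ± 0.10 (adjusted p 0.0092). Of 17 cell cycle genes 4 were lower there, with a summed intensity of 11765 to 12146 against 12880 to 13810 with the control shRNA; the largest decrease was that of RRM2, a ribonucleotide reductase subunit (−1.32 ± 0.10). The part of these genes in the lower levels of the 8 members was not tested.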

How the data were processed

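Members and gene lists were chosen with earlier results of these data known. The deposited values are log2 intensities. The authors used GCRMA (per the submitters' processing notes, version not given in the sources used here). That the base is 2 was taken from the method and the range, and whether all arrays were normalized together is not stated. Of 33297 probe sets, 19460 name 1 gene symbol, 1754 name several and 12083 name none. Symbols follow RefSeq. A gene was tested if above the 40th percentile of its array on at least 3 arrays. limma 3.58.1 (R 4.3.3) fitted 6 group means, with eBayes moderation, on 16 arrays (10 residual degrees of freedom) or all 18 (12). Calls use adjusted p under 0.05. The number of arrays limits precision. Among members called with no overlap between groups, up to 5 increases and 5 decreases were named (no such condition for differences in differentiation; the 3 largest where none passed), with up to 4 genes of each other list, the RNA polymerase I genes, KBTBD8, MYC, MYCN, TCOF1 and NOLC1; others named, such as FBL, PES1 or BOP1, were chosen after their values were seen. Scripts used Python 3.11.15, pandas 2.3.3 and matplotlib 3.10.9. The fit was tested on simulated data. Alternatives were all 18 arrays, median centring, quantile normalization (added after seeing the data), no filter, mean of probe sets, array weights, the compared groups alone, a replicate block and leaving out each array.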

Additional observations from a re-analysis of the deposited data

Results flagged for a closer look

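A test of the difference between 2 treatments in the change from pluripotent cells to embryoid bodies passed for 8 members with the control shRNA against untransduced cells. Among them LYAR differed by −0.90, RRP12 by −0.60, NOP16 by −0.56, LTV1 by −0.50 and NOP14 by −0.47 on the log2 scale, all toward a lower log2 change with the control shRNA. The same 5 values stand on all 18 arrays, where none of the 8 passed in limma. The same kind of test passed for 4 members with the KBTBD8 shRNA against the control shRNA, all toward a higher log2 change with the KBTBD8 shRNA. GRWD1 differed by 0.71, RRP9 by 0.56, NIP7 by 0.49 and TSR1 by 0.43. These tests use 2 arrays in each KBTBD8 shRNA group. They share the pluripotent arrays with the comparison of the KBTBD8 and control shRNAs in pluripotent cells, so these results are not independent. After centring each array on its median, 1 member passed for the KBTBD8 shRNA against the control shRNA.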

How the results depend on the processing

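Counts of members changed moved by over 1.5 times under these settings. With all 18 arrays as labelled the differentiation count was 0 with the KBTBD8 shRNA and 14 untransduced; for the control shRNA against untransduced it was 5 in embryoid bodies and 10 in pluripotent cells, and 0 for their difference in differentiation. For the KBTBD8 shRNA against untransduced it was 10 in embryoid bodies and 3 in pluripotent cells. Centring each array on its median gave 4 members for the KBTBD8 against the control shRNA in pluripotent cells, 1 for the difference in differentiation between them and 6 for the KBTBD8 shRNA against untransduced pluripotent cells. Fitting only the groups compared gave 4 for the last, and quantile normalization gave 7 for that difference in differentiation. Signs reversed on all 18 arrays for UTP20 (0.12) and RIOK1 (0.12) with the KBTBD8 against the control shRNA in embryoid bodies, and for LYAR (0.066) and RIOK1 (0.0098) against untransduced. The cause was not tested beyond the 2 arrays that these fits add.

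Leaving out 1 array at a time, the counts ran from 15 to 21 for differentiation with the KBTBD8 shRNA, 33 to 34 with the control shRNA and 22 to 29 untransduced. They ran from 0 to 0 for the KBTBD8 against the control shRNA in embryoid bodies and 3 to 7 in pluripotent cells, from 13 to 16 and 18 to 26 for the control shRNA against untransduced, and from 11 to 16 and 4 to 14 for the KBTBD8 shRNA against untransduced, each in embryoid bodies and in pluripotent cells. For the differences in differentiation they ran from 1 to 3 (KBTBD8 against control shRNA) and from 4 to 10 (control shRNA against untransduced). Of 69 values of named members, 37 kept direction and call on all 18 arrays and 59 after centring, and 361 of 424 did with 1 array left out.

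Whether the replicate numbers pair the arrays was not settled: of 18 same-numbered pairs 4 correlated above 0.1 (−0.38 to 0.38). Those 4 all held a KBTBD8 shRNA pluripotent array (0.32 and 0.32 with embryoid bodies, 0.38 and 0.36 with the control shRNA). That group has 2 arrays in the fit, whose deviations from their mean mirror each other, so these correlations cannot decide it. With the replicate number as a block the counts were 22, 35 and 29 for differentiation with the KBTBD8 shRNA, the control shRNA and untransduced, 0 and 9 for the KBTBD8 against the control shRNA in embryoid bodies and pluripotent cells, and 16 and 22 for the control shRNA against untransduced; 1 named call was lost, RIOK2 with the KBTBD8 shRNA (0.35). Signal near background limits low members, and the number of arrays limits all.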
